A study of Mus musculus with 22 samples.

Results

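The mitochondrial ribosomal protein genes are the nuclear genes for the proteins of the ribosome inside mitochondria. They were taken as every gene symbol made of Mrpl or Mrps and a number, which gave 76 genes of the 23453 in the count table. All 76 had reads in at least 5 of the 22 cells, the condition that 12719 genes met for the comparisons between cells. 49 encode proteins of the large subunit, including Mrps18a and Mrps30, which carry small-subunit names, and 26 encode proteins of the small subunit. The last, Mrps36, is named as a ribosomal protein but is known as a subunit of the α-ketoglutarate dehydrogenase complex. RNA was measured in 22 single astrocytes, glial cells of the brain, grown from the cortex of C57BL/6 mouse pups aged P0 to P1. Cultures had been shaken and treated with cytosine arabinoside against other cells. Every cell was exposed to ethanol (EtOH) under calcium imaging, then drawn into a micropipette and amplified on its own. By their calcium signal, 6 cells were S-type (a slow rise and slow decay), 6 were T-type (a transient rise), 5 were M-type (a mixture) and 5 were nonresponsive (NR). No cell was left without EtOH, so the NR cells are a comparison group and not an untreated control. The animal or culture of origin and the time from exposure to collection are not given cell by cell. The study describes single astrocytes collected at different times after the EtOH exposure and fits collection time as a term. The cells may therefore differ in collection time, and its part in the differences between types cannot be told apart here. For these reasons all cells of a response type are treated as 1 sample, and the types are compared by their values without a test.

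The mitochondrial ribosome translates the few proteins that mitochondrial DNA encodes, all of them subunits of the respiratory chain or the ATP synthase. Its ribosomal RNAs come from mitochondrial DNA, while every protein is made by cytosolic ribosomes from nuclear genes and imported. The small subunit binds the mRNA and decodes it, and the large subunit forms the peptide bonds beside the inner membrane. Many of the proteins have a bacterial homologue, and others were added in the evolution of mitochondria. Among the genes listed, 48 belong to the first kind and 27 to the second.

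The genes were spread over 17 chromosomes, with 10 on chromosome 11 and 8 on chromosome 17. Promoters, taken as the 300 bases from 250 before to 50 after a transcription start in RefSeq on GRCm38.p6, were at hand for 67 of the 76 genes, with 73 starts. There were none for Mrpl4, Mrpl13, Mrpl15, Mrpl19, Mrpl38, Mrpl54, Mrps28, Mrps34 and Mrps35. They were searched on both strands for the letters of 3 motifs tied to nuclear genes of mitochondria, namely NRF-1 (GCGCANGCG), the ETS family, which includes GABP (CCGGAAG), and YY1 (AAGATGG), each on its own and with overlaps allowed. At least 1 of them stood in 62.7% of the 67 genes, in 37.1% of the compared genes with a promoter and in 21.4% of all 27025 genes with one. The ETS letters were in 35.8% of the 67, against 19.8% of the compared genes and 9.93% of all genes. For NRF-1 the shares were 22.4%, 15.4% and 7.03%, and for YY1 19.4%, 8.40% and 7.28%. The promoters of cytosolic ribosomal protein genes held at least 1 of the motifs in 63.5% of 63 genes. Members with any of the motifs and without one had median levels of 554 and 541 normalized reads per kb. By motif, the medians with and without were 528 and 544 for NRF-1, 519 and 544 for ETS and 321 and 545 for YY1. The motif letters are a description and not sites of binding. The promoters below belong to 3 members that the results turn on, with motif letters in capitals. Mrpl52 was higher in T-type cells and holds the ETS letters from positions -47 and 2 and the YY1 letters from -91, counted from the start at position 0. Mrpl10 varied least between cells and holds the NRF-1 letters from -135. Mrpl1, the member furthest below the other types in T-type cells, holds none of the 3 motifs in this window.
Mrpl52 (chr14:54426659-54426958, + strand): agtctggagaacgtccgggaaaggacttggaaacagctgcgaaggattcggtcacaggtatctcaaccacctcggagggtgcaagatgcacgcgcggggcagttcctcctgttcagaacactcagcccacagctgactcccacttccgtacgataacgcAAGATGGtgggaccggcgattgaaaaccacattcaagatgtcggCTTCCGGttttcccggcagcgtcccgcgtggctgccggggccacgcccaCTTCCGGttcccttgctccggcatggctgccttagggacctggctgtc
Mrpl10 (chr11:97041332-97041631, + strand): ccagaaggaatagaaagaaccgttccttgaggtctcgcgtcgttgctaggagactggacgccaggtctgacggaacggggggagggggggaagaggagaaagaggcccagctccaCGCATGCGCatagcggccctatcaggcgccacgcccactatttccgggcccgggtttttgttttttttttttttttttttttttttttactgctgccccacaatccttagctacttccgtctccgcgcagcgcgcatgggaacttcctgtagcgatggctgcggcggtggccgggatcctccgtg
Mrpl1 (chr5:96209865-96210164, + strand): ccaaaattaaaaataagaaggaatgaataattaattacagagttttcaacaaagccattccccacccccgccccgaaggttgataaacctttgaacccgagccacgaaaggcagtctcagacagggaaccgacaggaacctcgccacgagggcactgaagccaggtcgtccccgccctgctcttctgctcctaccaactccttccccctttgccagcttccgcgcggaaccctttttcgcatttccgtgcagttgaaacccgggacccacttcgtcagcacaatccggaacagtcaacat

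Reads per cell ran from 2937786 to 22131076, and a size factor brought the cells to 1 scale, on which a value is called a normalized read count. A pair of T-type cells stood apart. Cell J163_18 had the fewest reads and cell J162_16 the fewest genes with a read (6319). All of the 12 astrocyte markers checked had reads in every type, with median summed shares between 0.974% (S-type) and 1.53% (T-type and M-type) of reads. Markers of endothelium, mural cells and fibroblasts summed to at most 0.741% (S-type cell J155_9). Those of the oligodendrocyte lineage reached 0.333% (T-type cell J163_18). Neuronal markers reached 0.208% in S-type cell J151_5, which had the lowest astrocyte share, 0.484%. The 14 microglial markers together reached at most 0.0232% of reads, in an NR cell. All 14 had a read in T-type cells, 13 in NR, 12 in M-type and 7 in S-type cells. P2ry12 was among those at 0 in S-type and M-type cells and was the only one at 0 in NR cells. T-type cells also had fewer genes with a read, 6319 to 10614 against 9768 to 11914 in S-type and 9696 to 13070 in NR cells. The part of depth and of detected genes in the differences below was not tested.

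Members were well detected in single cells. 45 of the 76 had reads in all 22 cells (59.2%, against 28.9% of the genes compared), 25 in 21 cells and 6 in 20 or fewer. Of the 1672 values of 76 genes in 22 cells, 49 were 0. 20 of these zeros lay in cell J163_18 and 8 in cell J162_16. The median level per kb of transcript was 521 normalized reads, with 541 for large-subunit and 463 for small-subunit genes. It lay above the median of all genes (82.6 per kb) and below that of the cytosolic ribosomal protein genes (5968 per kb). The middle range, from the first to the last quartile, was 244 to 1102 per kb.

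The most abundant transcript by length was Mrps6, which encodes a small-subunit protein with a bacterial S6 homologue, at 18601 normalized reads per kb. Mrpl20 (5001 per kb), Mrpl9 (4626 per kb) and Mrpl18 (3263 per kb), all of the large subunit, led their subunit. After Mrps6 the small subunit was led by Mrps18c (1869 per kb) and Mrps28 (1753 per kb). At the other end stood Mrps27, a mitochondria-specific protein of the small subunit, at 5.64 per kb. Genes whose products enter the same particle thus differed widely in read level. Length was that of the longest protein-coding transcript annotated as basic, so each level per kb, and its rank, depends on the isoform taken. Mrps6 (chromosome 16, 92058270 to 92112227, GRCm38) shares 36.1% of its transcript length with exons of Gm49711, a same-strand gene not analysed here, and 18.8% with exons of Slc5a3, an inositol transporter gene on the same strand, and Mrps6 and Slc5a3 both had reads (401684 and 313437). The levels of Mrps6 and Slc5a3 had a Spearman correlation of -0.12 over the 22 cells, where both values of a cell come from 1 library. Reads of the shared bases cannot be assigned to 1 gene from the counts.

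**Figure D1:**
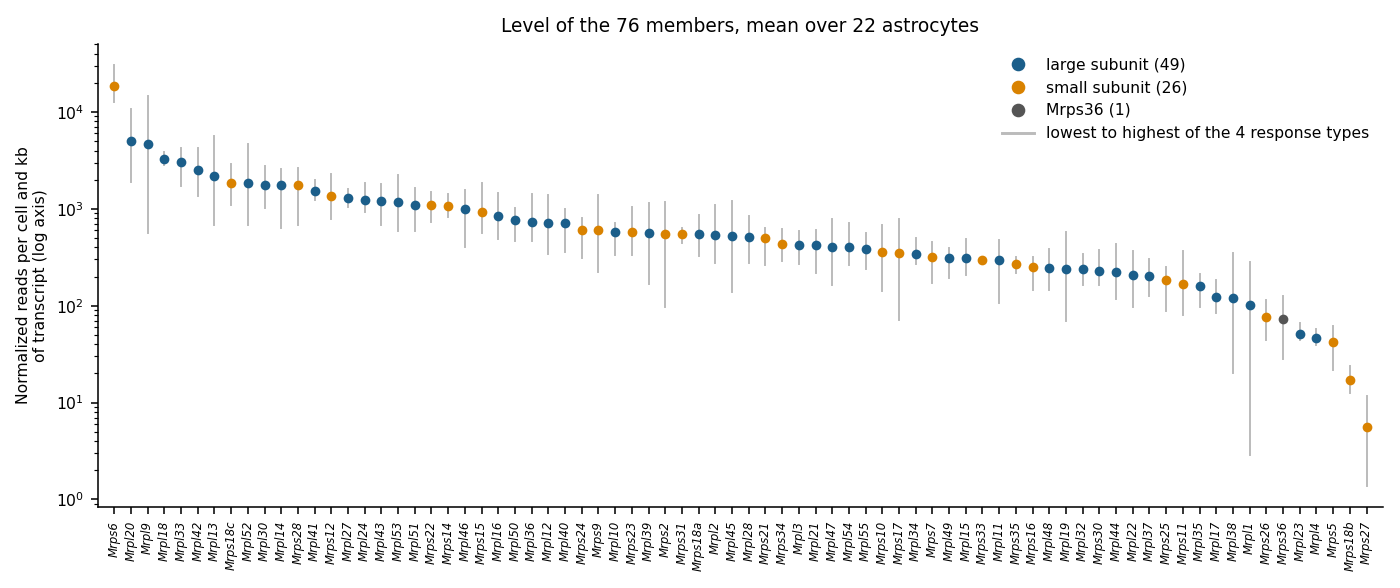
Mean level of each of the 76 genes over the 22 cells, in normalized reads per kb of transcript on a log axis, by rank, with points coloured by subunit and a grey line from the lowest to the highest of the 4 type levels. Mrps6 stands at 18601 and Mrps27 at 5.64, around the members' median of 521.

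As a group the members took between 0.391% and 0.986% of the reads of a cell, a 2.52-fold range. S-type cells J150_3, J151_5, J153_6, J154_8, J155_9 and J156_16 gave them 0.915%, 0.633%, 0.709%, 0.617%, 0.714% and 0.503%. T-type cells J161_9, J162_16, J163_18, J164_19, J165_23 and J166_25 gave them 0.887%, 0.773%, 0.443%, 0.744%, 0.986% and 0.708%. In the 5 M-type cells the shares were 0.776%, 0.622%, 0.595%, 0.582% and 0.704%, and in the 5 NR cells they were 0.391%, 0.567%, 0.555%, 0.727% and 0.698%. The types overlapped throughout, and their medians, from the highest, were 0.758% (T-type), 0.671% (S-type), 0.622% (M-type) and 0.567% (NR). Between 4.60% and 35.2% of these reads belonged to Mrps6 alone. Without Mrps6 the medians in that order were 0.592%, 0.577%, 0.558% and 0.485%.

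The number of members with a read was close to complete in most cells. S-type cells had reads of 74 to 76 members, M-type cells of 74 to 76 and NR cells of 73 to 76. T-type cells had 76, 68, 56, 73, 73 and 75, in the order above, so the low values were those of J162_16 and J163_18. Thinned to the depth of the smallest library, the median cell still showed 75 members for S-type and M-type, 73 for NR and 71 for T-type. Large-subunit genes together took more reads than small-subunit genes in every cell once Mrps6 was set aside. These are sums over 49 large-subunit genes and over the 26 small-subunit genes less Mrps6, so the larger number of genes enters them. With Mrps6 kept, the small subunit took more in T-type cell J161_9 (0.459%, against 0.427% for the large subunit). The ratio of the subunits' reads ran from 1.68 in T-type cell J164_19 to 5.15 in T-type cell J162_16. S-type cells had ratios of 2.75 to 3.92, above those of the M-type cells (1.77 to 2.53) and of the NR cells (1.90 to 2.70).

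**Figure D2:**
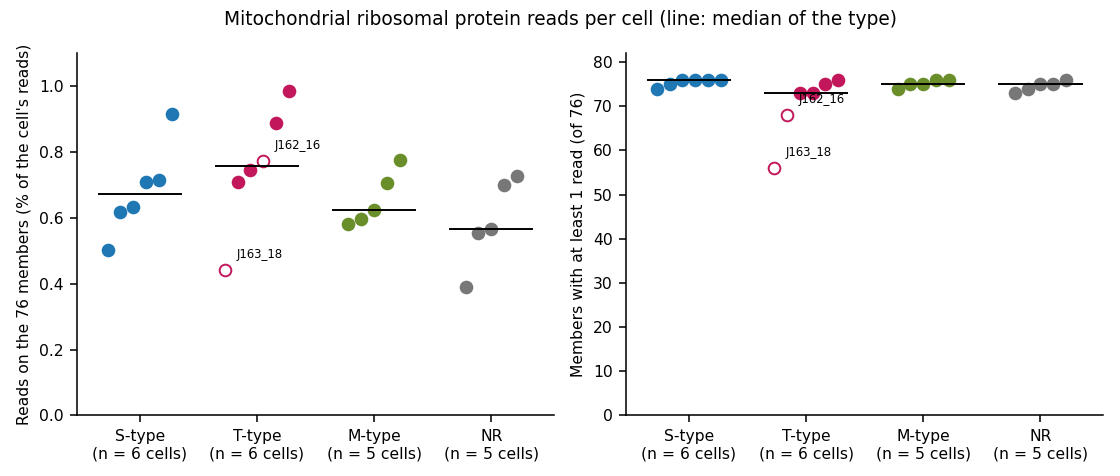
Share of reads on the 76 genes (left, % of the reads of a cell) and number of the 76 with at least 1 read (right) in each of the 22 cells by response type, with a line at each type's median. The shares of the types overlap, while cells J162_16 and J163_18 have 68 and 56 members with a read.

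The comparison of T-type with S-type cells asks how cells of the transient and of the slow response differ in RNA. Members were, on balance, higher in T-type cells when cells were scaled by size factors. The median member was 0.58 higher in T-type cells on the log2 scale, while the median of all genes compared was -0.081. In this comparison 26 members were at least 2-fold higher in T-type cells, 34.2% of them against 25.8% of all genes compared, and 11 were at least 2-fold lower, 14.5% against 32.5%. No member had T-type and S-type cells that did not overlap, against 0.771% of all genes. Scaled by total reads (CPM) instead, the members' median was 0.028 and that of all genes -0.46, with 10 members at least 2-fold higher and 15 lower. These were 13.2% of members higher, now fewer than the 16.7% of all genes, and 19.7% lower, against 38.0%. With each type's median cell in place of its mean, the members' median was 0.076, with 20 higher (26.3%, against 10.2% of all genes) and 21 lower (27.6%, against 45.1%). Scaled by TMM factors (edgeR), the members' median was 0.61, with 24 higher (31.6%, against 24.9% of all genes) and 9 lower (11.8%, against 32.2%). The size of the difference thus depended on how cells were scaled and averaged. Whether a larger share of members than of all genes was higher depended on the scaling, and of these settings only CPM reversed it. The members' median stood 0.66 above that of all genes with size factors and 0.48 above it with CPM.

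Single T-type cells were compared with the median S-type cell. In T-type cells J161_9, J162_16, J164_19, J165_23 and J166_25, 46, 44, 40, 46 and 43 of the 76 members were above the median S-type cell. These are 52.6% to 60.5% of members, against 27.6% to 43.3% of all genes in the same cells. Cell J163_18 was the exception, with 21 members above (27.6%, against 33.9% of genes). A larger share of members than of all genes was not limited to T-type cells. It was also found in 4 of 5 M-type cells, where 40 to 43 members were above the median S-type cell. The M-type cell without it was J175_18, with 34 members above. A larger share of members was also found in 2 of 5 NR cells, with 44 members in NR cell J186_5 (57.9%, against 42.7% of genes). For 42 of the 76 members the highest cell of all 22 was a T-type cell, 55.3% against 39.0% of all genes. Cell J162_16 alone was the highest for 19 of them. Without J162_16 and J163_18, an alternative chosen after the values were seen, the members' median was 0.41, with 24 at least 2-fold higher and 11 lower. These were 31.6% of members higher, against 21.8% of all genes, and 14.5% lower, against 36.2%. The summed share of G2/M genes was 0.00171% to 0.189% in T-type and 0.00181% to 0.899% in S-type cells, and 13 of 14 of these genes were at least 2-fold lower in T-type. Microglial markers summed to at most 0.0137% of reads in T-type and 0.000123% in S-type cells. The part of either in the members' ratios was not tested.

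**Figure D3:**
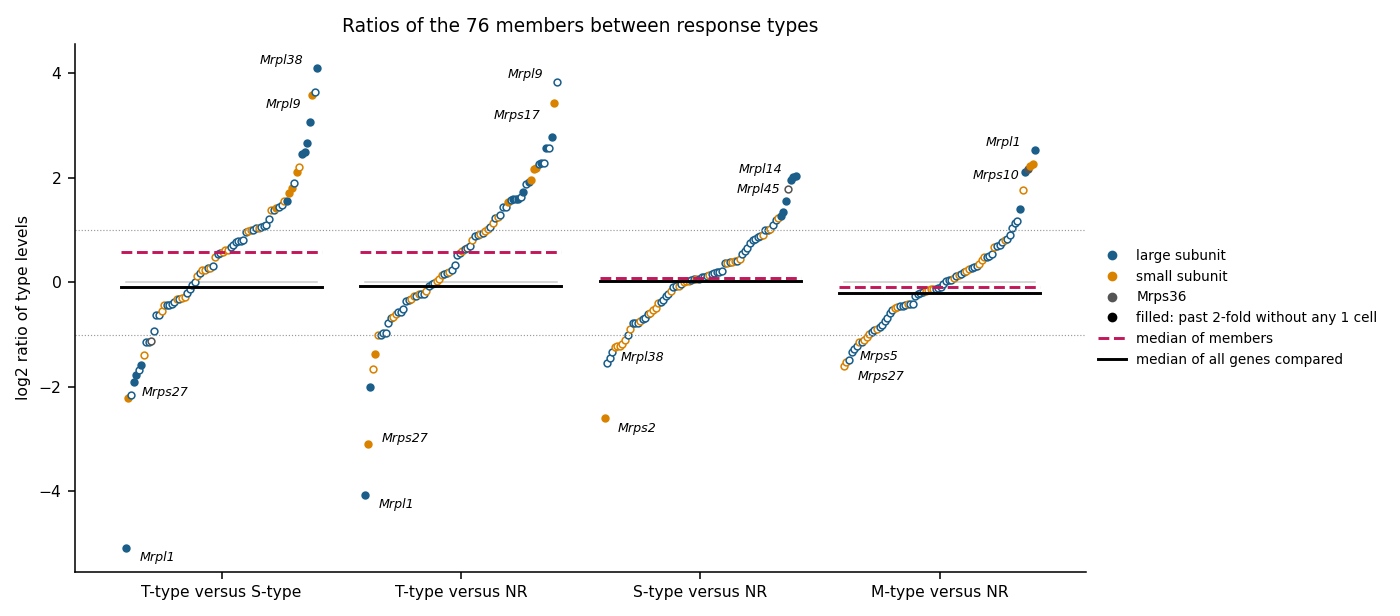
Log2 ratio of type levels for each of the 76 members in the 4 contrasts, sorted within each, with filled points past 2-fold whichever single cell is left out and lines for the median of the members and of all genes compared. The members' median is 0.58 and 0.59 in the T-type contrasts and 0.087 and -0.098 in the others, and Mrpl1 is the lowest member in both T-type contrasts.

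11 of the 26 higher members stayed at least 2-fold higher whichever single cell was left out, namely Mrpl13, Mrpl20, Mrpl36, Mrpl38, Mrpl39, Mrpl52, Mrps2, Mrps9, Mrps11, Mrps15 and Mrps18c. For 13 of the 26, 1 cell held most of the T-type level. Of the 11 lower members, Mrpl1, Mrpl16, Mrpl44, Mrpl45 and Mrps27 stayed at least 2-fold lower. The study names Mrpl1, Mrpl13, Mrpl20, Mrpl52, Mrps2 and Mrps17 from these same cells, so their direction is not independent evidence. Intervals given with a log2 ratio are 95% counting intervals, which cover counting error only and not the spread between cells.

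Mrpl20 (chromosome 4, 155802878 to 155809975), which encodes the homologue of bacterial L20 in the large subunit, had T-type values with a lowest of 1842, a median of 4591 and a highest of 19345 normalized reads. In S-type cells Mrpl20 had a lowest of 326, a median of 1411 and a highest of 2629. 5 of 6 T-type cells lay above every S-type cell, with a log2 ratio of 2.50 (2.47 to 2.53) that was 2.04 without T-type cell J161_9. The 5 NR cells had 1858, 1746, 3547, 2548 and 2659 and overlapped both types. Mrpl20 was thus among the most abundant members and was higher in most T-type cells.

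Mrpl52 (chromosome 14, 54426909 to 54429756), a mitochondria-specific protein of the large subunit, had a lowest of 372, a median of 2511 and a highest of 4047 in T-type cells. Its S-type values had a lowest of 138, a median of 332 and a highest of 971. The log2 ratio was 2.45 (2.38 to 2.52), and 2.17 without J162_16, with 4 of 6 T-type cells above every S-type cell. Mrpl13 (chromosome 15, 55534094 to 55557748), the homologue of bacterial L13, had a lowest of 702, a median of 2923 and a highest of 26536 in T-type and a lowest of 518, a median of 714 and a highest of 1255 in S-type cells. Here 5 of 6 T-type cells lay above every S-type cell. The ratio of Mrpl13 was 3.07 (3.03 to 3.11) and 1.86 without J162_16, where 63.9% of its T-type level lay. 27.0% of the Mrpl13 transcript lies opposite exons of Mtbp, whose level had a Spearman correlation of -0.29 with it over the 22 cells.

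Mrps2 (chromosome 2, 28468066 to 28471178), the homologue of bacterial S2 in the small subunit, had a lowest of 34.7, a median of 664 and a highest of 12262 in T-type cells against a lowest of 14.1, a median of 188 and a highest of 447 in S-type cells. 4 of 6 T-type cells exceeded every S-type cell. The log2 ratio of 3.59 (3.51 to 3.68) was 1.29 without J162_16. Mrps18c, one of 3 mitochondrial homologues of bacterial S18, was higher by 1.42 (1.37 to 1.46), with 5 of 6 T-type cells above every S-type cell, and by 0.94 when scaled by CPM.

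The other higher members named above are from both subunits. Mrpl36, the homologue of bacterial L36, had T-type values with a lowest of 0, a median of 1398 and a highest of 3369 against S-type values with a lowest of 53.1, a median of 428 and a highest of 905, a log2 ratio of 1.55 (1.49 to 1.62). Mrpl39, a mitochondria-specific protein of the large subunit, had a ratio of 2.67 (2.61 to 2.74), with 4 of 6 T-type cells above every S-type cell. In the small subunit the homologues of bacterial S9, S11 and S15 were each higher. Mrps9 had 1.80 (1.73 to 1.87), with 3 of 6 T-type cells above every S-type cell. Mrps11 had 2.11 (1.96 to 2.25), with 4 of 6 such cells. Mrps15 had 1.70 (1.64 to 1.77), with 4 of 6 such cells. With CPM in place of size factors, Mrpl36, Mrpl39, Mrps9, Mrps11 and Mrps15 had 0.92, 1.98, 1.40, 1.08 and 0.95. Among the lower members, Mrpl16, the homologue of bacterial L16, had -1.59 (-1.64 to -1.54), and Mrpl44, a large-subunit protein with an RNase III-like fold, had -1.91 (-2.01 to -1.81).

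Large ratios could also come from 1 cell. Mrpl9 (chromosome 3, 94443318 to 94451130), the homologue of bacterial L9, had a lowest of 16.4, a median of 1565 and a highest of 138475 in T-type and a lowest of 500.4, a median of 917 and a highest of 7209 in S-type cells. The highest of these was J162_16, with 96.2% of what the T-type cells held together, and the log2 ratio of 3.63 became -0.82 without it. Mrpl19, the homologue of bacterial L19, behaved alike, with a ratio of 1.91 that became -3.69 without J162_16. Mrpl38, a mitochondria-specific protein of the large subunit, had the largest ratio, 4.10 (3.89 to 4.32), and 1.09 without that cell. Its T-type cells had a lowest of 22.4, a median of 68.0 and a highest of 2629, and its S-type cells a lowest of 0, a median of 12.1 and a highest of 107. Mrpl9, Mrpl38 and Mrpl19 were also the 3 members that varied most over the 22 cells.

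Mrpl1 (chromosome 5, 96209493 to 96266727), the homologue of bacterial L1, which sits at the stalk where tRNA leaves the ribosome, was the member furthest below S-type in T-type cells. T-type cells had a lowest of 0, a median of 3.69 and a highest of 29.0, and S-type cells a lowest of 1.08, a median of 71.6 and a highest of 1616. The types overlapped, since S-type cells J151_5 and J156_16 were at 1.08 and 2.23. The T-type level was 33.7-fold lower, a log2 ratio of -5.07 (-5.75 to -4.47) that rested on 30 T-type reads against 2444. Without S-type cell J150_3, which held 77.7% of the S-type level, it was -3.17. Mrps27, at a lowest of 0, a median of 0.648 and a highest of 8.45 in T-type and a lowest of 1.83, a median of 9.57 and a highest of 29.8 in S-type cells, was lower by a log2 ratio of -2.20 (-3.30 to -1.26) on 11 T-type reads. Mrpl45, a large-subunit protein near the exit of the nascent chain at the inner membrane, was lower by -1.77 (-1.84 to -1.71).

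**Figure D4:**
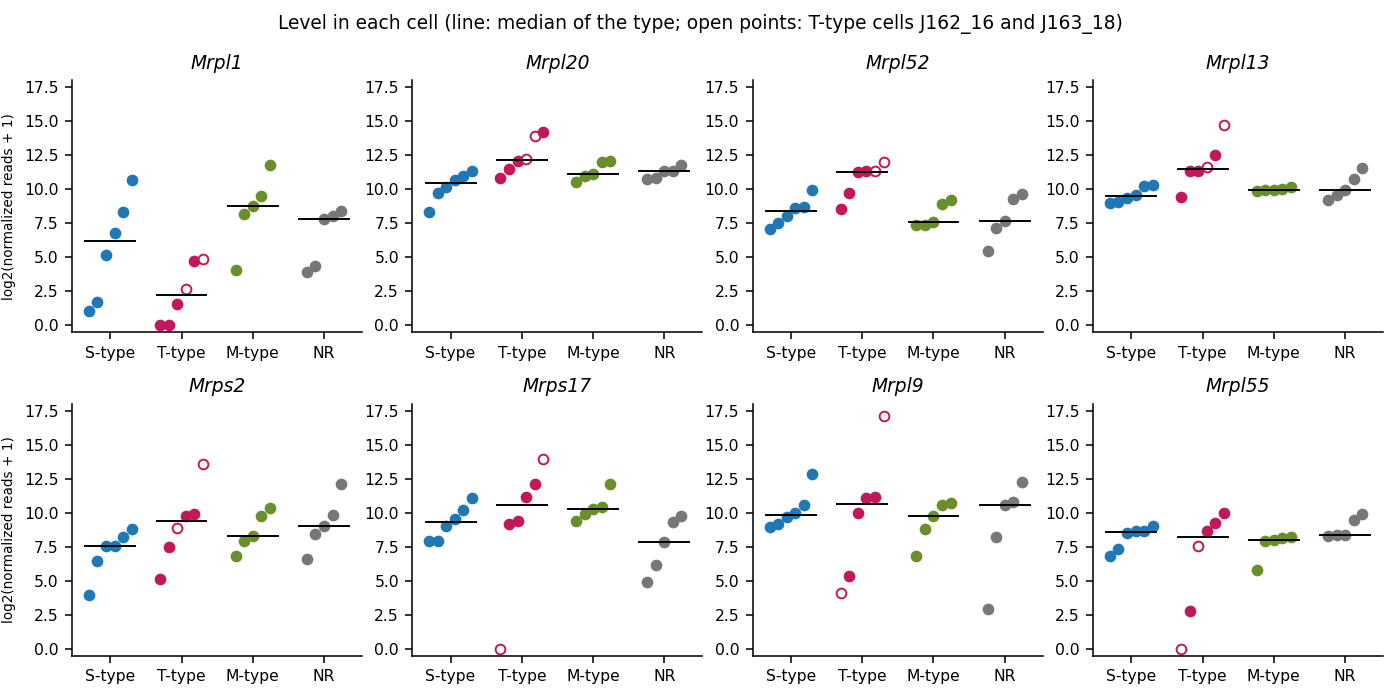
Level of 8 members in each of the 22 cells by response type, as log2 of the normalized reads plus 1, with a line at each type's median and open points for T-type cells J162_16 and J163_18. Most T-type points of Mrpl20, Mrpl52 and Mrpl13 lie above the S-type points, those of Mrpl1 lie low with 2 of 6 at 0, and 1 T-type cell stands far above the others for Mrpl9.

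The comparison of T-type with NR cells asks how the transient response differs from none, and it uses the same T-type cells as the one above. The members' median log2 ratio was 0.59 and that of all genes -0.064. 28 members were at least 2-fold higher, 36.8% against 28.5% of all genes, and 6 were at least 2-fold lower, 7.89% against 32.7%. No member had types that did not overlap, against 0.991% of all genes. With CPM the median turned to -0.049 while that of all genes was -0.46, and 11 members were higher and 10 lower. These were 14.5% of members higher, now fewer than the 19.2% of all genes, and 13.2% lower, against 38.1%. With each type's median cell in place of its mean, 21 members were higher (27.6%, against 15.0% of all genes) and 20 lower (26.3%, against 40.1%). Without J162_16 the members' median was 0.045, and without both J162_16 and J163_18 it was 0.31, with 27 higher and 8 lower. The latter were 35.5% of members higher, against 24.1% of all genes, and 10.5% lower, against 36.3%. The count of lower members was 10 without T-type cell J161_9, 10 without J165_23 and 11 without J166_25. For 16 of the 28 higher members 1 cell held most of the T-type level, and 12 stayed at least 2-fold higher whichever cell was left out. Of the 14 S-phase genes 10 were at least 2-fold higher in T-type cells, and of the 12 microglial markers compared 8 were at least 2-fold lower, and their part in these ratios was not tested.

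Mrps17 (chromosome 5, 129715497 to 129722556), the homologue of bacterial S17 in the small subunit, had a lowest of 0, a median of 1482 and a highest of 15739 in T-type cells, and its 5 NR cells had 229, 650.0, 845, 68.8 and 28.7. 3 of 6 T-type cells were above every NR cell and 1 was below every one. The log2 ratio was 3.43 (3.37 to 3.49), and 2.11 without J162_16. Against S-type cells Mrps17 was higher by 2.20 (2.15 to 2.25), and by 0.88 without J162_16. Mrps17 was also higher in M-type than in NR cells, by 2.24 (2.18 to 2.29). Mrpl52 was higher than in NR cells by 2.57 (2.50 to 2.64), with 5 of 6 T-type cells above all NR cells, which had 43.7, 202, 139, 803 and 638. Mrpl20 was higher by 1.72 (1.69 to 1.75) and Mrpl13 by 2.28 (2.25 to 2.32). Mrpl9 had the largest ratio, 3.83, which became -0.62 without J162_16. Mrpl28, a large-subunit protein with a bacterial homologue, was higher by 1.59 (1.51 to 1.67) and was among the members that varied least over all cells.

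Mrpl1 had 14.6, 267, 335, 224 and 19.5 in NR cells, and 4 of 6 T-type cells were below every one of them. The log2 ratio of Mrpl1 was -4.06 (-4.74 to -3.46) and stayed between -4.72 and -3.67 whichever cell was left out. Mrps27 had 8.50, 61.8, 22.3, 9.57 and 6.49 in NR cells, with 5 of 6 T-type cells below every one. Its ratio was -3.10 (-4.17 to -2.19). Mrpl11, the homologue of bacterial L11, and Mrps7, that of S7, were the other members at least 2-fold lower whichever cell was left out, with counting intervals of the log2 ratio of -2.08 to -1.93 and -1.44 to -1.30. Both T-type contrasts use the same T-type cells, so their calls are not independent. In both, 19 members were at least 2-fold higher and 4 lower, and the share of all genes called in both is not given here. The 4 lower were Mrpl1, Mrpl11, Mrps7 and Mrps27.

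As a group, the members had close medians in S-type and NR cells. The median log2 ratio was 0.087, against 0.027 for all genes. 12 members were at least 2-fold higher (15.8%, against 25.1% of all genes) and 10 at least 2-fold lower (13.2%, against 22.5%), and none had types that did not overlap (0.409% of all genes). Without S-type cell J150_3 the median was -0.25 and without NR cell J182_2 it was -0.019, so its sign rested on single cells. The count of lower members was 6 without NR cell J186_5 or J187_6. G2/M genes were at least 2-fold higher in S-type cells for 14 of 14. Their summed share of reads was 0.899% in S-type cell J150_3 and 0.487% in J151_5, while the other 4 S-type cells (0.00181% to 0.0444%) overlapped the NR cells (at most 0.0295%). In the same comparison 12 of the 12 microglial markers compared were at least 2-fold lower. The part of either list in the members' ratios was not tested. Mrpl14 (chromosome 17, 45686322 to 45698495), the homologue of bacterial L14 at the interface of the subunits, had a lowest of 473, a median of 1601 and a highest of 3239 in S-type cells. The NR cells of Mrpl14 had 770.4, 628, 379.7, 209.9 and 75.1. 5 of 6 S-type cells were above every NR cell, with a log2 ratio of 2.03 (1.97 to 2.08). Mrpl45 (chromosome 11, 97315716 to 97329920) had a lowest of 781, a median of 1542 and a highest of 7368 in S-type cells and 301, 542, 15.1, 2575 and 229.9 in NR cells, with a ratio of 2.01 (1.97 to 2.05) and a clear overlap. Mrpl51, a mitochondria-specific protein of the large subunit, was higher by 1.27 (1.24 to 1.29), with 4 of 6 S-type cells above all NR cells. Mrpl16, Mrpl44 and Mrpl46 also stayed at least 2-fold higher whichever cell was left out.

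Among lower members, Mrps2 had NR values of 531, 95.9, 344, 903 and 4307, and its log2 ratio of S-type to NR was -2.60 (-2.68 to -2.52). NR cell J187_6 held 69.7% of the NR level of Mrps2, and without it the ratio was -1.20. Mrpl38 was lower by a log2 ratio of -1.54 (-1.77 to -1.31), and -0.86 without NR cell J185_4. Mrpl1 had a ratio of 1.01 that became -0.89 without J150_3. Mrpl20 was -0.78 (-0.81 to -0.74), with 4 of 6 S-type cells below every NR cell.

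M-type cells were also close to NR cells, with a median log2 ratio of -0.098 over the members and -0.20 over all genes. 10 members were at least 2-fold higher (13.2%, against 19.8% of all genes) and 10 at least 2-fold lower (13.2%, against 28.1%). The median was 0.0093 with CPM, 0.21 without NR cell J186_5 and 0.13 without NR cell J187_6. The 12 microglial markers compared were all at least 2-fold lower in M-type than in NR cells, and their part here was not tested. Mrpl55 (chromosome 11, 59202486 to 59206134), a large-subunit protein, was the 1 member whose M-type and NR cells did not overlap, 1.32% of members against 0.598% of all genes. M-type cells had 53.2, 256, 301, 246 and 279 and NR cells 334, 305, 691, 969 and 324, a log2 ratio of -1.21 (-1.29 to -1.13). The separation was narrow, 301 against 305, and rested on the scaling, since the cells of the types overlapped for Mrpl55 with CPM. The largest ratio was that of Mrpl1, 2.54 (2.46 to 2.62), with M-type values of 3506, 298, 730.4, 447 and 15.6. It was 1.12 without M-type cell J172_23. Mrps10 (chromosome 17, 47368887 to 47381417), the homologue of bacterial S10 in the head of the small subunit, had 651, 1880.1, 950.3, 101 and 219.9 in M-type and 111, 264, 349, 1.79 and 59.3 in NR cells. 3 of 5 M-type cells were above all NR cells, and the ratio was 2.27 (2.18 to 2.37). Mrpl14, Mrpl39, Mrps17 and Mrps36 also stayed at least 2-fold higher whichever cell was left out. None of the 10 lower members did so. Mrps27 was lower by a ratio of -1.60 (-2.02 to -1.20) and Mrps5, the homologue of bacterial S5, by -1.52 (-1.64 to -1.41). Without 1 NR cell, J183_1 for Mrps27 and J185_4 for Mrps5, these were -0.71 and -0.97.

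The subunits had close medians in T-type against S-type cells and in M-type against NR cells (-0.088 for large and -0.13 for small in the latter). They differed more in T-type and in S-type against NR cells. In T-type against S-type cells 17 of 49 large-subunit members were at least 2-fold higher (34.7%) and 8 lower (16.3%), with a median of 0.57. Of the 26 small-subunit members 9 were higher (34.6%) and 2 lower (7.69%), with a median of 0.60. Of all genes 25.8% were higher and 32.5% lower. Against NR, T-type cells had 20 large-subunit members higher (40.8%) and 2 lower (4.08%), and 8 small-subunit members higher (30.8%) and 4 lower (15.4%). Of all genes 28.5% were higher and 32.7% lower. The medians of the large and the small subunit were 0.63 and 0.17, which were 0.12 and -0.21 with CPM. In S-type against NR cells 9 large-subunit members were higher (18.4%) and 4 lower (8.16%), with a median of 0.18. Of the small-subunit members 2 were higher (7.69%) and 6 lower (23.1%), with a median of -0.11. Of all genes 25.1% were higher and 22.5% lower, so the small-subunit share lower was near that of all genes. The ratio of large-subunit to small-subunit reads given above was larger in each S-type cell than in the NR cells. Members with a bacterial homologue had a median of 0.78 in T-type against S-type cells, with 19 of 48 higher and 6 lower. The mitochondria-specific members had 7 of 27 higher and 4 lower, and 13 of the 27 had a ratio above 0. The share higher was 25.9%, beside 25.8% of all genes, and 39.6% among members with a bacterial homologue. Scaled by CPM the medians of these descent groups were 0.11 and -0.45. 17 members were within 2-fold in all 4 contrasts, among them Mrpl18, Mrpl23, Mrpl32, Mrpl41, Mrps14 and Mrps33. The share of all genes that did so is not given here.

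The 3 homologues of bacterial S18 have different places, Mrps18a in the large subunit and Mrps18b and Mrps18c in the small subunit. Per kb of transcript their mean levels were 544, 17.0 and 1869 normalized reads, so Mrps18c was the most read by length. Exons of Gm16279 lie opposite 59.1% of the Mrps18b transcript, and 21.2% of that of Mrps18c is shared with same-strand Gm43511. The part of these overlaps in the levels was not tested. Mrps18c was higher in T-type than in NR cells by 0.93 (0.89 to 0.98), Mrps18a by 0.69, which became -0.21 without J161_9 and -0.076 with CPM, and Mrps18b had -0.26. In M-type against NR cells Mrps18a was 1.14 (1.07 to 1.20) and Mrps18c 0.35. Over the 22 cells the Spearman correlations of the pairs were 0.22 for Mrps18a and Mrps18b, 0.28 for Mrps18a and Mrps18c and -0.07 for Mrps18b and Mrps18c.

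Single members varied greatly between cells. The coefficient of variation of the normalized reads over the 22 cells had a median of 1.08 over the members. Over genes at a mean level like that of the central quartiles of the members (396 to 1300 normalized reads) it was 1.22. Mrpl10, the homologue of bacterial L10 at the base of the stalk that binds translation factors, had the smallest value, 0.58, with levels of a lowest of 547, a median of 930.0 and a highest of 1448 in S-type and a lowest of 14.5, a median of 1113 and a highest of 2581 in T-type cells. Mrpl28 and Mrpl51 followed, both with 0.66. Mrpl9 (3.82), Mrpl38 (3.25) and Mrpl19 (2.94) varied most, with their highest value in J162_16.

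The members did not vary together as the cytosolic ribosomal protein genes did. Over the 2850 pairs of members the median Spearman correlation of normalized reads over the 22 cells was 0.053, against 0.045 for pairs of all genes and 0.534 for pairs of cytosolic ribosomal protein genes, with every set limited to genes averaging 10 or more normalized reads per cell. Pairs within the large subunit (0.059), within the small subunit (0.036) and between the subunits (0.047) were alike. Without J162_16 and J163_18 the medians were 0.036 for members, 0.028 for all genes and 0.550 for the cytosolic genes. The cytosolic genes are also far more abundant, and the values of a cell share its library and size factor. Single pairs reached further. Mrpl48 and Mrps28 had 0.85 (0.83 without those cells), and Mrpl23 and Mrpl32 had -0.74 (-0.76). Mrpl46 and Mrps11, which lie on opposite strands of chromosome 7 and overlap by 412 bases, had 0.22.

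**Figure D5:**
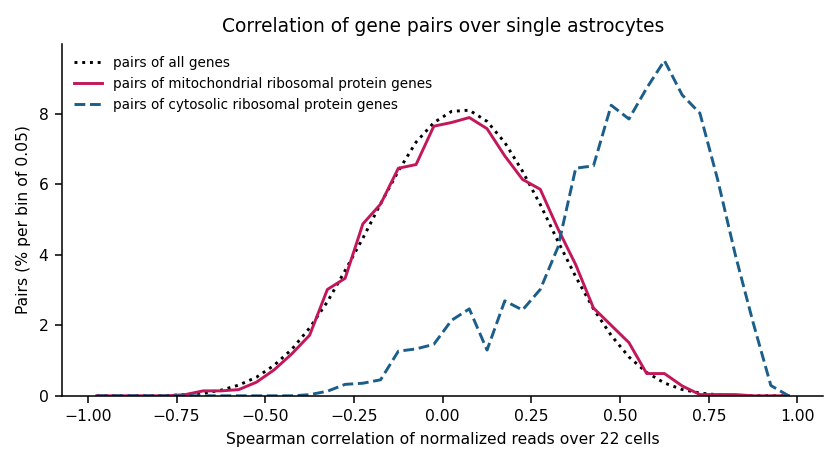
Spearman correlation over the 22 cells (x axis) against the percent of pairs in bins of 0.05 (y axis), for pairs of the members, of cytosolic ribosomal protein genes and of all genes averaging 10 or more normalized reads. The curve of the members follows that of all genes, with medians of 0.053 and 0.045, and the cytosolic genes centre on 0.534.

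Summed over the members, a relation between cells did appear. Without Mrps6, the members' share of reads had a Spearman correlation of 0.71 with the share of the cytosolic ribosomal protein genes over the 22 cells (0.71 without J162_16 and J163_18) and of 0.57 with that of the nuclear oxidative phosphorylation genes (0.52). Its correlation with the number of genes with a read was -0.49 (-0.64), and with total reads it was 0.12 (0.11). These shares have the same total as denominator, and the values are a description over the cells. Cells with a larger share on members tended to be cells with a larger share on cytosolic ribosomal protein genes and with fewer genes detected.

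The lists around the mitochondrial ribosome did not all go the same way in T-type cells. Of 81 cytosolic ribosomal protein genes 49 were at least 2-fold higher than in S-type cells and 2 lower (60.5% higher, against the 25.8% of all genes), with a median of 1.13 and of 0.60 when scaled by CPM. Of 78 oxidative phosphorylation genes 25 were higher (32.1%) and 1 lower (1.28%, against 32.5% of all genes), with a median of 0.74 and of 0.21 with CPM. The 7 subunit genes with other symbols had 2 higher (28.6%, near the 25.8% of all genes) and 0 lower. Among them Aurkaip1 and Mrp63 were the most abundant, with log2 ratios of 0.70 and -0.42. Without J162_16 the ratio of Aurkaip1 was -0.017. Of 14 translation factor genes of mitochondria 4 were at least 2-fold higher and 4 lower than in S-type cells, 28.6% each, near the 25.8% and 32.5% of all genes. Against NR cells 2 were higher and 8 lower (14.3% and 57.1%, against 28.5% and 32.7% of all genes), with a median of -1.17 and of -1.25 with CPM, below that of the members.

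Of the translation factors, Slirp, whose product binds mitochondrial mRNAs, and Mtif2, an initiation factor, were the most abundant, with T-type to S-type log2 ratios of 0.89 and 1.12. Mtfmt, which formylates the initiator tRNA, had a ratio of -3.58, and -7.88 without J162_16. Taco1, an activator of COX1 translation, had -6.42 (-8.28 to -5.06). The mean T-type levels of Mtfmt and Taco1 were 7.57 and 0.859 normalized reads, against 90.8 and 73.6 in S-type. Of 24 ribosome assembly genes 6 were at least 2-fold higher and 8 lower in T-type cells (25.0% and 33.3%, near the 25.8% and 32.5% of all genes). Gtpbp10, a GTPase of large-subunit assembly, had -4.18, and Rpusd4 and Trub2, pseudouridine synthases, had -3.28 and -2.51. Eral1, a chaperone of the small-subunit ribosomal RNA, had -6.28 (-11.61 to -3.75), Mterfd2 -2.45 and Rnmtl1, a methyltransferase of the large-subunit ribosomal RNA, -6.97 (-10.02 to -5.11). The values of Eral1 and Rnmtl1 rest on mean T-type levels of 0.108 and 0.608. Both levels are under the T-type floor of 0.622, which replaced only levels of 0. A T-type level of 0 would thus have given less extreme ratios. Malsu1, whose product binds the large subunit during assembly, was higher than in NR cells in T-type (2.86), S-type (2.33) and M-type cells (1.25). Rbfa (5.80) and Wbscr16 (3.60) had large ratios that became 0.46 and -2.46 without J162_16.

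Of 14 genes for mitochondrial transcription and its regulators 5 were at least 2-fold higher and 2 lower in T-type than in S-type cells. These were 35.7% and 14.3%, against 25.8% and 32.5% of all genes. Tefm, the elongation factor of mitochondrial transcription, had 3.42 and 3.68 without J162_16. Polrmt, the mitochondrial RNA polymerase, had 3.47, which became -0.68. Ppargc1a, a coactivator of mitochondrial biogenesis, had 1.01 and -0.04 without that cell, and Yy1 had 0.76. Gabpb2, a subunit of GABP, had -2.24. Ppargc1b was read at a mean of at most 2.39 normalized reads in any type.

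Counts of some members can hold reads of other genes. 27 of the 76 share exon bases with another gene, mostly on the opposite strand, and it is not stated whether counting used the strand. The largest shares with genes in the table were those of Mrps25 with Nr2c2 (75.6% of the transcript), Mrps34 with Mapk8ip3 (62.7%), Mrpl24 with Rrnad1 (43.6%) and Mrpl19 with Gcfc2 (39.2%). The levels of these pairs had Spearman correlations of 0.09, 0.06, 0.04 and 0.26 over the 22 cells. Among genes not in the count table, same-strand Gm42688 shares 100% of the Mrpl53 transcript and Gm16279 lies opposite 59.1% of that of Mrps18b. The annotation also holds 5 pseudogenes that carry a member's symbol, from Mrpl23, Mrpl48 and Mrps36. Pseudogenes under other names were not searched for. Reads that fit a gene and its pseudogene equally well are not among uniquely aligned reads, so the levels of at least these 3 members are uncertain.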

How the data were processed

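The authors trimmed the reads of 22 single-cell libraries, aligned them to GRCm38 with STAR and assigned uniquely aligned reads to exons with VERSE, and they deposited raw, unnormalized counts per gene symbol, each cell in a column of its own. The submitters' processing notes name STAR and HTSeq with no version, and the use of strand is not given in the sources used here. Each cell's RNA had been amplified in 2 rounds and carried no molecular identifiers, so counts are of amplified reads and not of molecules. Groups came from the labels, and the response types listed in the table matched them for 22 of 22 cells. Depth was 2937786 to 22131076 reads per cell.

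Size factors were medians of ratios over 3670 genes read throughout the 22 cells. Counts were divided by them, and the level in a response type is the mean of the quotients. A type at 0 received a floor of 3 reads, no ratio was formed where both types were at or under it, and genes compared were those seen in 5 or more cells. A level above 0 but under the floor was kept as it was, so it can give a more extreme ratio than a level of 0. A ratio was called at 2-fold. Its 95% interval came from the Clopper-Pearson split of the reads and covers counting error only. No p-value was computed between types. On simulated data with 200 changed genes among 12719, 100% had the right sign in all 4 contrasts and 94.5% to 96% lay within the interval. The simulated counts varied by counting error only, without the spread between cells seen in the real data. The result is therefore a check of the calculation, and it cannot show how reliable the ratios of the real cells are.

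The members and lists were chosen with earlier results of these data known. Members were named as the 3 most abundant per kb of each subunit, in each contrast the 2 furthest above and the 2 furthest below among members whose level averaged 10 or more, the 3 with the smallest and the 3 with the largest coefficient of variation among the same members, those the study names, any seen in under 5 cells (none), those without overlap in a contrast, and the S18 family. Members listed for keeping 2-fold without any single cell, for standing within 2-fold or for single pairs were added after their values were seen. For the counts of members that kept 2-fold the share of all genes is not given. Of the other lists, the 2 most abundant genes and those at least 4-fold different between T-type and S-type are named. Positions and exons came from GENCODE vM21 on GRCm38, and promoters from RefSeq on GRCm38.p6. Alternatives were scaling by CPM or by TMM (edgeR 4.0.16, R 4.3.3), thinning to the smallest library, a pseudocount of 1, all genes unfiltered, levels averaging 10 or more, the median over cells, at least 5 reads for detection, shares outside the 50 most read genes, and leaving out each cell. Python 3.11.15, pandas 2.3.3, NumPy 2.4.6, SciPy 1.17.1 and matplotlib 3.10.9 were used. Transcripts of mitochondrial DNA were not analysed here.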

Additional observations from a re-analysis of the deposited data

How the results depend on the processing

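With CPM the median log2 ratio of members was 0.028 for T-type versus S-type, with 10 at least 2-fold higher, and -0.049 for T-type versus NR, with 11 higher and 10 lower, and it was 0.0093 for M-type versus NR. With TMM factors the medians were 0.61 (T-type versus S-type), 0.44 (T-type versus NR), 0.0069 (S-type versus NR) and -0.027 (M-type versus NR). Thinned cells gave 0.43 (T-type versus S-type), 0.42 (T-type versus NR) and 0.18 (S-type versus NR). Taking the median over cells gave 0.076 with 21 lower (T-type versus S-type), 0.31 with 20 lower (T-type versus NR), 0.20 (S-type versus NR) and 0.056 with 16 higher and 4 lower (M-type versus NR). The last counts were 21.1% of members higher, near the 22.1% of all genes, and 5.26% lower, against 22.6%. Without T-type cells J162_16 and J163_18, an alternative chosen after seeing the data, the medians were 0.41 against S-type and 0.31 against NR. The cause of these moves was not tested. The excess of the members' median over that of all genes was 0.48 to 0.97 for T-type versus S-type over 20 settings and 0.18 to 0.87 for T-type versus NR over 19. The setting with all genes unfiltered is not among them, and most of them leave out 1 cell under the same scaling.

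Leaving out each cell, the median ranged from 0.36 to 0.76 (T-type versus S-type), 0.045 to 0.78 (T-type versus NR), -0.25 to 0.24 (S-type versus NR) and -0.21 to 0.21 (M-type versus NR), and the count of lower members from 6 to 11 (T-type versus NR) and from 6 to 13 (S-type versus NR). Counting detection from 5 reads gave a median of 74 members in S-type, 74 in M-type and 72 in NR cells, and thinned cells gave 75 in S-type and 73 in NR. The M-type share of reads was 0.758% outside the 50 most read genes. Over all results 80 values under the other alternatives stayed within their limits and 28 did not, and of the values without 1 cell 144 did and 32 did not. Depth limits Mrps27 most, with 11 reads in T-type cells. No paired analysis was possible because the labels give no replicate numbers that groups share and no test was made.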
